A study of Mus musculus with 6 samples.

Results

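The genes described here are 10 mouse selenoprotein genes: Sepp1, Gpx1, Gpx3, Gpx4, Txnrd1, Txnrd2, Sephs2, Sepw1, Sep15 and Sepn1. They were found by gene symbol among the non-control probes, and they hold 12 of the 41174 probes, or 10 of 27670 genes. Newer names are Selenop for Sepp1, Selenow for Sepw1, Selenof for Sep15 and Selenon for Sepn1. The set was chosen by the measured difference between the 2 groups, in which Sepp1 stood out, so the members' differences are given as a description without p-values. All members except Txnrd2, which had 3 probes, had 1 probe.

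All arrays hold RNA of cultured 4T1.2 cells, which come from a BALB/c mammary tumour and can spread to bone, with no further treatment. IRF7 cells carried the pMSCV retroviral vector with Irf7, a transcription factor that turns on type I interferon genes, and base-vector cells carried the same vector empty. Both populations were selected with puromycin, cloned from single cells and pooled from several clones, so a difference between the groups cannot be told apart from a difference between the 2 pools of clones. Each group had 3 single-colour arrays, described as independent experiments, and 54.3 to 59.7% of the mouse spots on an array were well above background. The Irf7 probe was 19.4-fold higher in the IRF7 cells (log2 difference 4.28 after scaling, and 4.19 within slide 1, which held all 3 IRF7 arrays and base-vector replicate 1). The epithelial markers Epcam, Krt8, Krt18, Cdh1 and Krt14 were above background on all 6 arrays. Among them Epcam was 2.29-fold higher in the IRF7 cells, with signals of 160.6 to 206.0 against 62.2 to 72.9. The other epithelial markers differed less, from 0.87-fold (Krt14) to 1.11-fold (Krt8).

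Selenoproteins contain selenocysteine, an amino acid built on its own transfer RNA and inserted at a UGA codon that would otherwise end translation. Most of those with a known function are enzymes that use selenocysteine to reduce peroxides, disulfides or oxidised methionine. Selenium reaches many tissues bound in the secreted protein made from Sepp1, is turned into selenophosphate by the product of Sephs2, and is then built into all the other members.

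Promoter stretches are shown for 4 members because Irf7 encodes a factor that binds DNA. They are the members with the largest higher (Sepp1, Gpx1) and a lower (Sephs2) difference, and Txnrd1, a textbook target of the oxidative stress factor NRF2. Each is 250 bases that end just before an annotated transcript start, written 5′ to 3′ along the gene, from RefSeq on GRCm38.p6. All 10 members had at least 1 entry. Capitals mark the 4 motifs searched on both strands: GAAA, then 2 bases of any kind, then GAAA (interferon response), TGACNNNGC (antioxidant response), TTCNNNGAA (the GAS site of STAT factors) and TATAAA. The Sepp1 stretch is chr15:3270517-3270766 on the plus strand, that of Gpx1 is chr9:108338830-108339079 (plus), that of Txnrd1 is chr10:82858956-82859205 (plus) and that of Sephs2 is chr7:127274060-127274309 (minus).
Sepp1: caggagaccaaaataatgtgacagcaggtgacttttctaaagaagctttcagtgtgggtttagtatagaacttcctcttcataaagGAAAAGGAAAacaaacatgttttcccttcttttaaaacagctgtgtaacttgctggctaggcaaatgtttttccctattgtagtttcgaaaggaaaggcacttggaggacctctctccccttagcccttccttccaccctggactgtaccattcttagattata
Gpx1: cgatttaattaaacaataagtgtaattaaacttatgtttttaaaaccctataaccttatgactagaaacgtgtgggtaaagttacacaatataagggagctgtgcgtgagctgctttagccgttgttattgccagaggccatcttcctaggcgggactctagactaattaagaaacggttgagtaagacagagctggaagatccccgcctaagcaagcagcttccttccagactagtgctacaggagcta
Txnrd1: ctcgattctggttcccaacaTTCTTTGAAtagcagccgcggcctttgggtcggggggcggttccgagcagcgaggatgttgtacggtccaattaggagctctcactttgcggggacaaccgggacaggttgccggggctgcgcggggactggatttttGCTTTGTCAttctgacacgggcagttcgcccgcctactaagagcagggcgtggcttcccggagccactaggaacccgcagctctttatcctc
Sephs2: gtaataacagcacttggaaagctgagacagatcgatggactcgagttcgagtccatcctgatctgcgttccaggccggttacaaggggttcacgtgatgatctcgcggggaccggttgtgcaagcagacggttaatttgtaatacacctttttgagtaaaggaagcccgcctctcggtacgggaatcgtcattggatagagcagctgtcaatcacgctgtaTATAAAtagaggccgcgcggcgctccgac

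The Sepp1 stretch, that of the first of its annotated starts, held the letters of the interferon response motif, beginning 164 bases before that start. The window of the next Sepp1 start held the same match, at 208 bases, and that of the last start held none. No other member held the motif in any of its windows. The 10 members had 17 windows, so 2 of 17 held it, both with the same site. Of all 32851 promoter windows of the same length, 2.98% held that motif. Txnrd1 alone held the antioxidant response motif, on the opposite strand and 92 bases before the second of its annotated starts. That was 1 of 17 windows, against 10.2% of all windows. Txnrd1 also held the GAS letters, in 2 of 17 windows, against 7.02% of all windows. TATAAA stood 29 bases before the start of Sephs2 and before a later start of Sepp1. That was 2 of 17 windows, against 12.4% of all windows. Gpx1 held none of the 4 motifs. These matches describe letters and were not tested against binding.

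Sepp1, the selenium carrier, was near the floor of the arrays in base-vector cells and clearly measured in IRF7 cells. Its probe (A_51_P470328, mm7 chromosome 15, positions 3106281 to 3106340) gave signals of 217.9, 212.9 and 222.2 in the IRF7 cells, against 7.67, 7.25 and 7.72 in the base-vector cells. The probe was well above background on all 3 IRF7 arrays and on 0 base-vector arrays, and the groups lay far apart. In RNA of whole cultures, more cells expressing Sepp1 and more of its RNA per cell cannot be told apart. The lowest signal of any probe well above background was 31.8 to 34.1 on the base-vector arrays. The IRF7 cells thus had at least 5.76-fold more Sepp1 signal, a bound taken against that lowest signal on each base-vector array. The mean level, in log2 units above or below the 75th percentile of its array, was -2.66 ± 0.083 in IRF7 cells and -7.32 ± 0.076 in base-vector cells (SD, n = 3 each). The measured log2 difference was 4.65, and 4.73 within slide 1, and it depends on how signals near background are read, being 1.73 with a model-based background correction. That correction (normexp) adds an offset of 50, which shrinks differences between dim signals.

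The genes whose 6 log2 levels lay closest to those of Sepp1, after centring each gene on its mean, were Irf7 itself (Euclidean distance 0.52), the interferon-induced Ifi44l (0.59) and the antiviral GTPase Mx2 (0.61). With 2 groups this likeness is mainly likeness in the size of the difference, and Sepp1 and Ifi44l share a base-vector level below background. The order rests on those dim signals, since with the normexp correction the difference was 1.73 for Sepp1 and 3.93 for Irf7. Sepp1 is the first tested gene on its chromosome in the GRCm38.p6 order. Of the 5 tested genes that follow it, 4 rose and 1 fell, with a median log2 difference of 0.28. Its nearest tested neighbour Ghr, the growth hormone receptor, rose by 0.70. The 519 other tested genes of chromosome 15 had a median of 0.13.

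Markers of liver, fibroblasts, endothelium and fat were set beside it. Of 4 liver markers, Alb, Ttr and Apoa1 never cleared background (no array had them well above it), and Apoh did on 2 arrays. The summed signal of all 4 was 50 to 69.8 in IRF7 cells and 36.0 to 58.7 in base-vector cells. Of 4 fibroblast markers, Col1a1 never cleared background, Col3a1 did on 1 array and Pdgfra always did. Pdgfrb did on all 3 base-vector arrays and on 0 IRF7 arrays. The fibroblast sum was 3135 to 3586 in IRF7 cells and 6419 to 7229 in base-vector cells. For 5 endothelial and fat markers the sum was 310.8 to 450.7 in IRF7 cells and 141.2 to 153.4 in base-vector cells. Pecam1, Kdr and Adipoq were never above background, Plin1 was on 1 array and Cdh5 always. The fibroblast sum thus ran opposite to Sepp1 and the endothelial and fat sum ran with it, and Pdgfra and Cdh5 made up most of them. The part of these cells in the result was not tested.

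**Figure D1:**
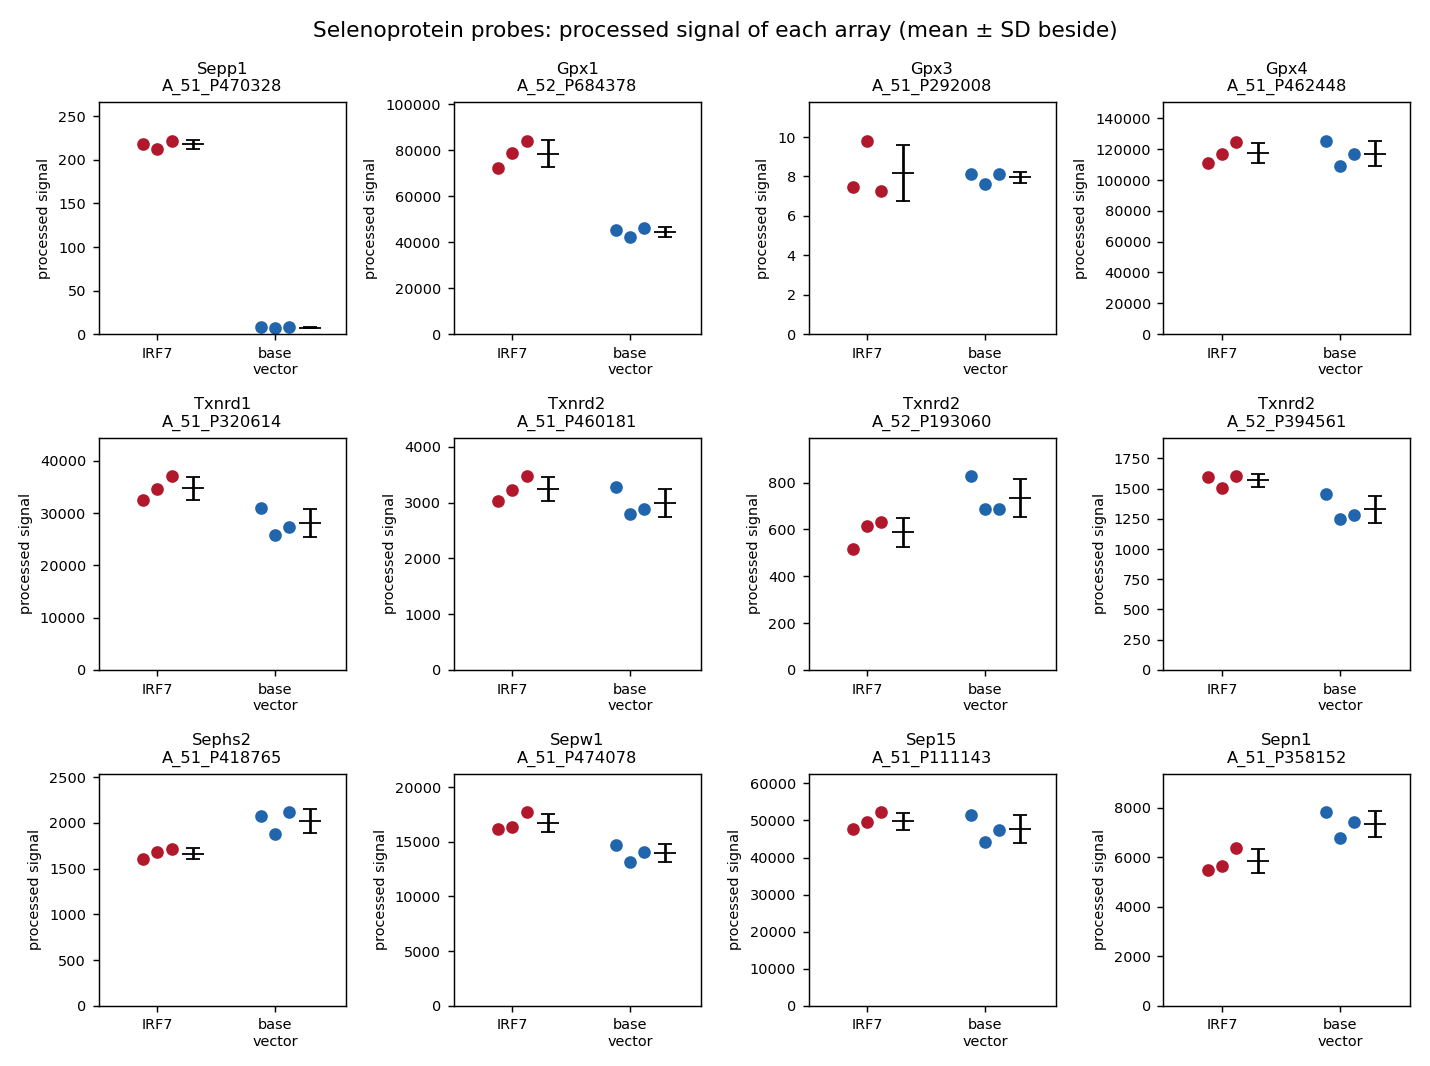
Processed signal (linear scale, y axis from 0) of each of the 12 selenoprotein probes on the 3 IRF7 arrays (red) and the 3 base-vector arrays (blue), with the mean and SD beside the points. Sepp1 read 212.9 to 222.2 in IRF7 cells and under 8 in base-vector cells, and Gpx1 read 72437 to 84224 in IRF7 cells and 42141 to 45992 in base-vector cells.

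Among the glutathione peroxidases, which reduce peroxides with glutathione, Gpx1 was higher and Gpx4 lower in the IRF7 cells after scaling, while without scaling Gpx4 was even (0.01). Gpx1, which reduces hydrogen peroxide in the cytosol and mitochondria (A_52_P684378, mm7 chromosome 9, positions 108073279 to 108073338), read 72437, 78951 and 84224 in the IRF7 cells, against 45121, 42141 and 45992 in the base-vector cells. Every IRF7 array lay above every base-vector array. Relative to the 75th percentile its log2 level was 5.83 ± 0.022 in IRF7 cells and 5.21 ± 0.085 in base-vector cells (SD, n = 3 each), a 1.54-fold higher level (log2 difference 0.62, and 0.70 within slide 1).

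Gpx4, which reduces lipid peroxides within membranes and is required to hold off ferroptosis (A_51_P462448, mm7 chromosome 10, positions 79836650 to 79836709), read 111290, 116768 and 124510 in the IRF7 cells, against 125651, 108967 and 116906 in the base-vector cells. Those signals overlapped. After scaling they did not, at 6.41 ± 0.020 in IRF7 cells and 6.60 ± 0.037 in base-vector cells (SD, n = 3 each), a log2 difference of -0.19, also within slide 1, that became 0.01 without scaling between arrays.

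The log2 ratio of Gpx1 over Gpx4 on the same array needs no scaling. It was -0.62, -0.56 and -0.56 in the IRF7 cells, against -1.48, -1.37 and -1.35 in the base-vector cells. The ratio was therefore higher by 0.82 in the IRF7 cells, and by 0.89 within slide 1, with no overlap between the groups. Gpx3, the peroxidase secreted into plasma (A_51_P292008, mm7 chromosome 11, positions 54866691 to 54866750), read 7.49, 9.82 and 7.26 in IRF7 cells, against 8.12, 7.64 and 8.14 in base-vector cells. The probe never cleared background and the groups overlapped, so no difference was measurable.

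The thioredoxin reductases restore thioredoxin, the cell's main protein disulfide reductant, with electrons from NADPH. Txnrd1, the cytosolic enzyme (A_51_P320614, mm7 chromosome 10, positions 82438991 to 82439050), read 32541, 34570 and 37003 in the IRF7 cells, against 31038, 25796 and 27262 in the base-vector cells. The groups did not overlap, although base-vector replicate 1 came within a few percent of the lowest IRF7 array. The scaled log2 level was 4.65 ± 0.016 in IRF7 cells and 4.54 ± 0.049 in base-vector cells (SD, n = 3 each), a log2 difference of 0.11, and of 0.06 within slide 1.

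The 3 probes of Txnrd2, the mitochondrial enzyme, did not give a common answer. On mm7 chromosome 16 they lie at positions 17987457 to 17987516 (A_52_P394561, designed on a cDNA clone), 18005761 to 18005820 (A_52_P193060) and 18021973 to 18022576 (A_51_P460181, whose 60 bases span 604 bases of the genome, with a gap). The middle probe read 518.5, 613.0 and 631.1 in the IRF7 cells, against 826.6, 688.6 and 686.3 in the base-vector cells, lower on every IRF7 array. Its log2 difference was -0.52, and -0.59 within slide 1.

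The last Txnrd2 probe, which had the brightest signal, read 3027, 3228 and 3469 in the IRF7 cells, against 3271, 2803 and 2890 in the base-vector cells. These overlapped, and the scaled log2 difference was -0.08 (-0.11 within slide 1), turning to 0.12 without scaling between arrays. The first probe read 1599, 1501 and 1601 in IRF7 cells, against 1458, 1252 and 1281 in base-vector cells. Those signals did not overlap, but the scaled levels did, with a difference of 0.04 (0.01 within slide 1, and -0.02 without IRF7 replicate 1).

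Ratios between the Txnrd2 probes on the same array do not depend on scaling between arrays, and they differed too. The log2 ratio of the middle over the last probe was -2.55, -2.40 and -2.46 in the IRF7 cells, against -1.98, -2.03 and -2.07 in the base-vector cells. It was lower by 0.44 in the IRF7 cells (difference -0.44, and -0.48 within slide 1), several times the SDs of 0.075 and 0.045. The middle over the first probe differed by -0.56. The first over the last differed by 0.12 without overlap, beside an SD of 0.11 in the IRF7 arrays, where replicate 1 stood apart. The middle probe was thus the one that departed from the other two.

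**Figure D2:**
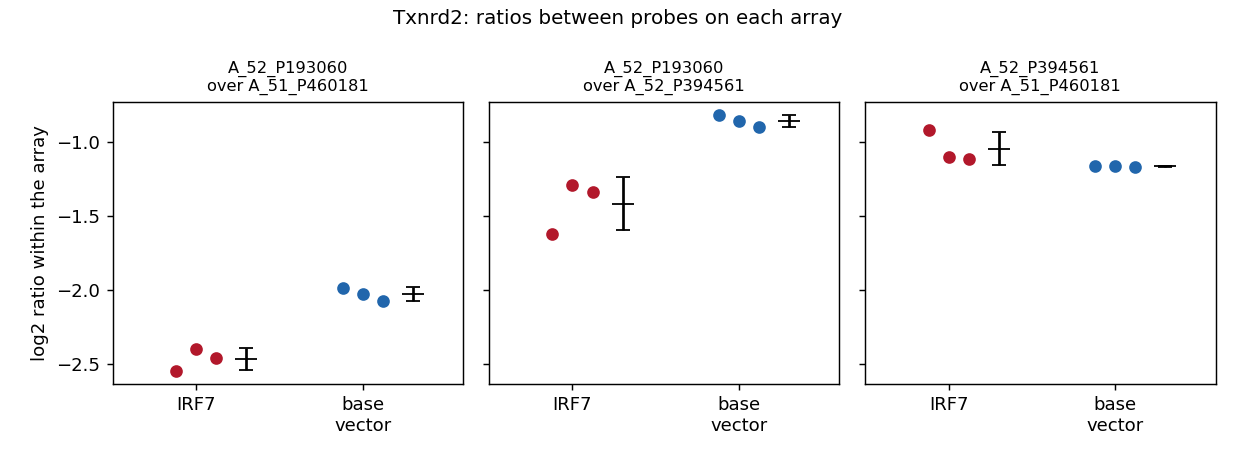
Log2 ratio of signals between pairs of Txnrd2 probes on the same array (y axis), for the 3 IRF7 arrays (red) and the 3 base-vector arrays (blue), with mean and SD beside the points. Both ratios with A_52_P193060 on top were lower on every IRF7 array, by 0.44 and 0.56 in the mean, while the third ratio differed by 0.12.

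Sephs2, the selenoprotein that makes the selenium donor for all the others, was lower in the IRF7 cells. Its probe (A_51_P418765, mm7 chromosome 7, positions 123368889 to 123368948, minus strand) read 1599, 1678 and 1714 in the IRF7 cells, against 2076, 1875 and 2116 in the base-vector cells. The groups did not overlap. The scaled log2 level was 0.27 ± 0.037 in IRF7 cells and 0.75 ± 0.091 in base-vector cells (SD, n = 3 each), a log2 difference of -0.48 (0.72-fold), and -0.42 within slide 1.

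On chromosome 7, where Sephs2 lies, the median log2 difference of 988 tested genes was -0.39, and 76.4% passed the threshold. The 10 tested genes nearest to Sephs2 had a median of -0.71. Of these 8 fell and 2 rose, over a range of -1.03 to 0.29 that holds the value of Sephs2. The 2 that rose were its nearest tested neighbours on either side, Dctpp1 (0.18) and Itgal (0.29). The other member on that chromosome, Sepw1, is placed in mm7 on the unplaced part of chromosome 7 (positions 964680 to 964739, minus strand). The 10 tested genes nearest to it had a median of -0.31, with 5 lower past the threshold and 0 higher.

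Sepw1, a small thioredoxin-like protein abundant in muscle (A_51_P474078), read 16191, 16332 and 17711 in the IRF7 cells, against 14692, 13110 and 14079 in the base-vector cells. The signals did not overlap, but the scaled levels did, at 3.60 ± 0.047 in IRF7 cells and 3.54 ± 0.045 in base-vector cells (SD, n = 3 each). The log2 difference was 0.06, and 0.09 within slide 1, close to the spread within a group, and it was -0.003 with quantile normalization.

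The members of the endoplasmic reticulum were both lower after scaling, although Sep15 was not without it. Sepn1, a membrane protein whose loss causes a muscle disease in humans (A_51_P358152, mm7 chromosome 4, positions 133916477 to 133916536, minus strand), read 5486, 5662 and 6377 in the IRF7 cells, against 7816, 6789 and 7423 in the base-vector cells. No array of one group reached the other group. The scaled log2 level was 2.08 ± 0.053 in IRF7 cells and 2.61 ± 0.051 in base-vector cells (SD, n = 3 each), a difference of -0.53 (0.69-fold), and -0.52 within slide 1. Its 10 nearest tested genes had a median of 0.22, with 6 higher and 2 lower past the threshold.

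Sep15, a partner of the enzyme that checks the folding of glycoproteins (A_51_P111143, mm7 chromosome 3, positions 144490495 to 144490554), read 47613, 49461 and 52219 in the IRF7 cells, against 51602, 44274 and 47288 in the base-vector cells. The signals overlapped, while the scaled levels did not, at 5.17 ± 0.028 in IRF7 cells and 5.31 ± 0.035 in base-vector cells (SD, n = 3 each). The log2 difference of -0.14 (-0.15 within slide 1) turned to 0.06 without scaling. On each array the log2 ratio of Sepn1 over Sep15 was lower in the IRF7 cells, at -3.12, -3.13 and -3.03, against -2.72, -2.71 and -2.67 in the base-vector cells, a difference of -0.39.

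**Figure D3:**
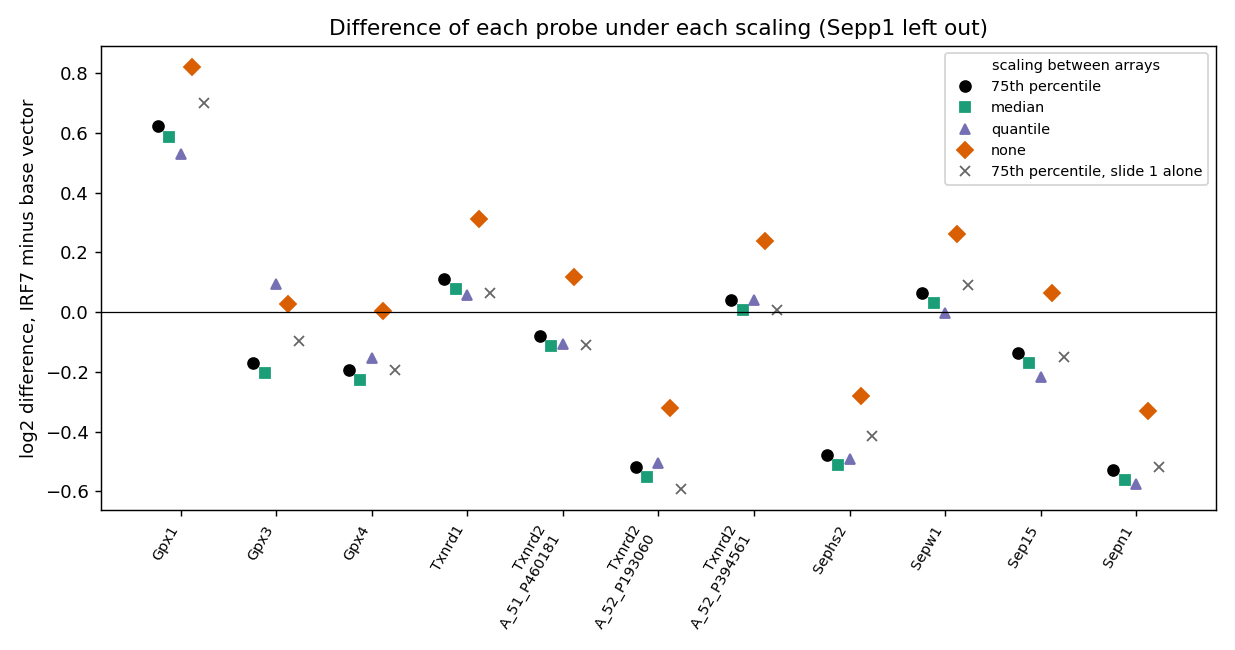
Log2 difference, IRF7 minus base vector (y axis), of the 11 probes other than Sepp1 under each way of scaling the arrays and within slide 1; Gpx3 is drawn although it is not above background. Gpx1 stayed between 0.53 and 0.82 and Sepn1 between -0.58 and -0.33, while Gpx4 and Sep15 crossed 0 without scaling.

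Over the 9 members that could be tested, Gpx3 being too dim, the median log2 difference was -0.08, beside 0.03 over all 15414 genes tested. Of the 9, 3 were higher (Sepp1, Gpx1, Txnrd1), 4 lower (Gpx4, Sephs2, Sep15, Sepn1) and 2 did not pass (Txnrd2, Sepw1) at an adjusted p of 0.05 in limma's fit across all genes. In that fit 61% of all genes passed, 31.9% higher and 29.1% lower, and the contrast is the one the set was drawn from, so nothing is read from the members' count. The groups did not overlap in 8 of the 9, beside 67.8% of all genes. Only Sepp1 differed by at least 1 on the log2 scale. With slide as a fixed block 5 members passed, Txnrd1 and Sep15 being lost, while 7135 of all genes passed, against 9403. With slide as a random block 7 members and 10018 of all genes passed. Without scaling between arrays, which moves the median of all genes from 0.03 to 0.23, only 2 members were lower (Sephs2, Sepn1). Of all genes 1702 were then lower, against 4482. Txnrd1 also missed the threshold when any 1 array other than base-vector replicate 1 was left out. Txnrd2 passed as lower with quantile normalization, with the mean of a gene's probes and with limma's trended, robust variance model. Sepw1 passed as higher without scaling between arrays.

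The other 14 genes complete the 24 known mouse selenoproteins. Like the members, this and the other lists of related genes were chosen with earlier results of these data known. Their p-values are therefore given as a description. A test was possible for 11, of which 3 rose and 4 fell, and the median log2 difference was -0.04, beside 31.9% rising, 29.1% falling and a median of 0.03 over all genes. Dio1 and Dio3, which convert or inactivate thyroid hormone, and Selenov never cleared background. Selenos, a protein of the machinery that clears misfolded proteins from the endoplasmic reticulum, read 8139, 8925 and 9542 in the IRF7 cells, against 16199, 14159 and 15664 in the base-vector cells. That was the clearest fall of the list (log2 difference -0.99, SE 0.041, limma adjusted p = 1.51e-05), and Selenos lies on chromosome 7. Selenom, another protein of that compartment, fell by 0.59 (SE 0.043, limma adjusted p = 0.000116).

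Selenot, an oxidoreductase of the same compartment, rose by 0.48 (SE 0.062, limma adjusted p = 0.00119). A second Selenot probe read 0.51 but the last one -0.03. Taking the median of the probes' levels on each array follows the probe of middle level, not the middle difference. With it the gene read -0.03. Smaller changes were those of Selenoi, a phospholipid synthesis enzyme, which rose by 0.14 (SE 0.027, limma adjusted p = 0.00518), and of Txnrd3, a reductase most abundant in testis, which rose by 0.18 (SE 0.057, limma adjusted p = 0.0330). Dio2, which activates thyroid hormone, fell by 0.11 (SE 0.030, limma adjusted p = 0.0193), a direction that turned without scaling (0.09). Selenok (-0.04) and Selenoh (0.02) did not pass. Fitted with a slide term, 1 gene of the list rose (Selenot) and 2 fell (Selenos, Selenom), while 3655 rose and 3480 fell among all 15414. Without IRF7 replicate 2 or 3 the list's calls fell to 4 of 11 from 7 of 11, and without base-vector replicate 2 the falls were 2. Of all genes 8531 passed without IRF7 replicate 2 and 8270 without replicate 3, against 9403. Without base-vector replicate 2, 4278 of all genes fell, against 4482.

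Genes that take up selenium, build selenocysteine or insert it had a median of 0.07. Of the 13 that could be tested 4 rose and 3 fell, beside 31.9% rising and 29.1% falling over all genes. Lrp8, a receptor that takes up the protein made from Sepp1, read 378.1, 428.8 and 488.3 in the IRF7 cells, against 241.1, 233.7 and 224.5 in the base-vector cells. It rose by 0.68 (SE 0.062, limma adjusted p = 0.000265), and by 0.74 within slide 1. Lrp2, the receptor for the same protein in kidney, never cleared background with any of its 4 probes.

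Pstk, the kinase that prepares the transfer RNA for selenocysteine, read 2008, 2124 and 2220 in the IRF7 cells, against 3375, 2822 and 3010 in the base-vector cells. It fell by 0.73 (SE 0.034, limma adjusted p = 2.28e-05), with -1.20 from a second probe, and it lies on chromosome 7. Scly, which recovers selenium from free selenocysteine, fell by 0.23 (SE 0.031, limma adjusted p = 0.00136), and Sars, which charges that transfer RNA with serine, fell by 0.22 (SE 0.035, limma adjusted p = 0.00265). Secisbp2, which binds the RNA element that recodes UGA, rose by 0.39 (SE 0.064, limma adjusted p = 0.00302), but by 0.25 within slide 1 and with 0.14 from a second probe. Eif4a3, a helicase of the exon junction complex that can block that element, rose by 0.26 (SE 0.041, limma adjusted p = 0.00257). Rpl30 (-0.07) and Trnau1ap (0.07) did not pass. With arrays centred on the median 2 rose and 1 fell, and without scaling 7 rose and 1 fell. Over all genes 2820 rose and 3387 fell with median centring, and 6442 rose and 1702 fell without scaling. The main fit had 4921 rising and 4482 falling.

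Among partners and cysteine-containing relatives of the members, 14 genes rose and 6 fell, beside 31.9% and 29.1% of all genes. These 22 tested genes of the thioredoxin, peroxiredoxin, glutaredoxin, methionine sulfoxide reductase and glutathione systems had a median of 0.23, beside 0.03 over all genes. Msrb2, a mitochondrial methionine sulfoxide reductase without selenium, read 2253, 2367 and 2499 in the IRF7 cells, against 308.5, 283.8 and 299.8 in the base-vector cells. It was 6.95-fold higher (log2 difference 2.80, SE 0.035, limma adjusted p = 4.22e-07), and 2.85 on the log2 scale within slide 1. Its relative Msra rose by 0.74 (SE 0.034, limma adjusted p = 2.17e-05) and the mitochondrial thioredoxin Txn2 by 0.67 (SE 0.046, limma adjusted p = 9.22e-05, with 0.67 from a second probe).

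Txnip, which binds and inhibits thioredoxin, fell by 0.50 (SE 0.036, limma adjusted p = 0.000112), with -0.54 from a second probe. Gss, the last enzyme of glutathione synthesis, fell by 0.31 (SE 0.026, limma adjusted p = 0.000203), and Msrb3 fell by 0.41 (SE 0.044, limma adjusted p = 0.000544), with -0.48 and -0.37 from further probes. Sod1 (0.09) and Prdx3 (0.05) did not pass. Gpx5, Gpx6, Gpx7 and Sod3 never cleared background. Centred on the median 7 rose, while 2820 of all genes did, against 4921 in the main fit. Without scaling between arrays 1 fell, while 1702 of all genes did, against 4482.

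Regulators and targets of NRF2, the factor that drives Txnrd1 under oxidative stress, had no common direction. Among all 24, which could be tested, 11 rose and 9 fell, beside 31.9% and 29.1% of all genes, and the median was 0.05. With arrays centred on the median 7 rose, while 2820 of all genes did, against 4921 in the main fit. Without scaling 3 fell, while 1702 of all genes did, against 4482. Nqo1, a quinone reductase often used to read NRF2 activity, read 2829, 3012 and 3261 in the IRF7 cells, against 1555, 1406 and 1571 in the base-vector cells. It rose by 0.81 (SE 0.049, limma adjusted p = 5.76e-05), beside the small Maf protein Maff (0.76, SE 0.031) and the heme oxygenase Hmox1 (0.37, SE 0.026). The glutathione transferase Gstm1 fell by 1.30 (SE 0.036, limma adjusted p = 4.45e-06), with -1.36 from a second probe.

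Blvrb, a biliverdin reductase, fell by 0.69 (SE 0.036, limma adjusted p = 3.26e-05) and the ferritin light chain Ftl1 fell by 0.73 (SE 0.063, limma adjusted p = 0.000217). The ferritin heavy chain Fth1 (-0.05) and the glucose-6-phosphate dehydrogenase G6pdx (-0.01) did not pass. Across the 4 lists, 6 tested genes lie on chromosome 7 (Blvrb, Ftl1, Glrx3, Pstk, Selenos, Taldo1) and all 6 fell, while of the 64 elsewhere 32 rose and 16 fell. Over all genes 31.9% rose and 29.1% fell. The 988 tested genes of chromosome 7 had a median of -0.39, and 76.4% of them passed the threshold. What chromosome 7 contributes to the falls was not tested.

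**Figure D4:**
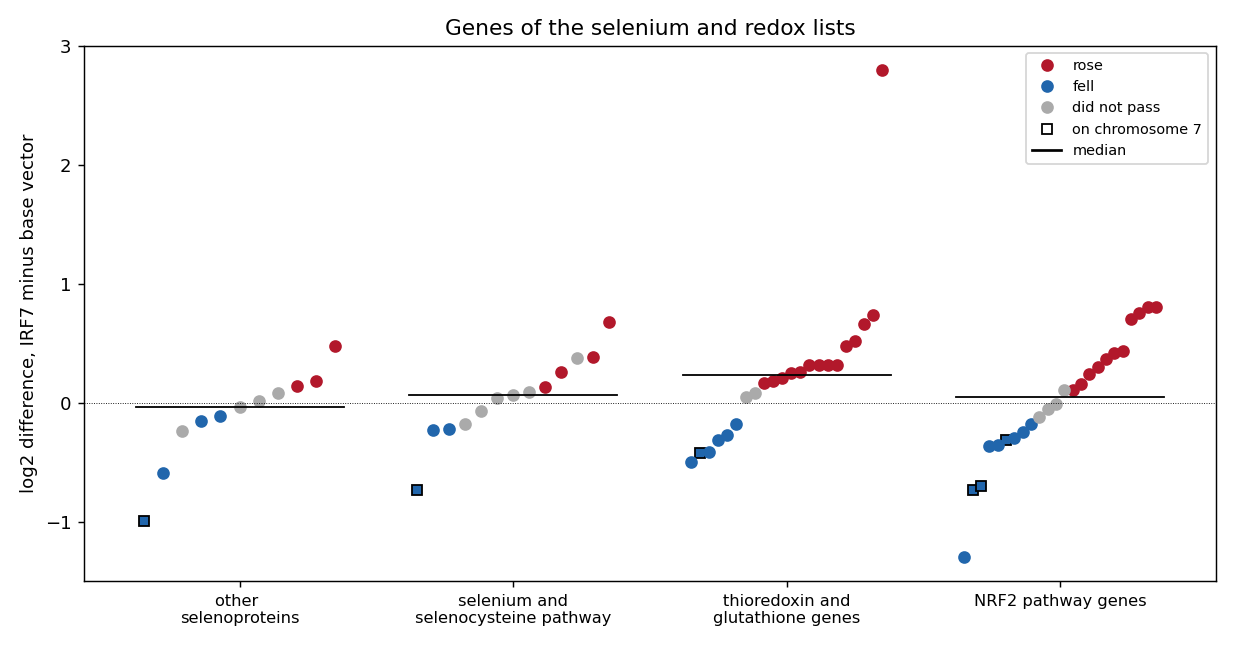
Log2 difference, IRF7 minus base vector (y axis), of each tested gene in the 4 related lists, in red where it rose, blue where it fell and grey where it did not pass; squares mark chromosome 7 and lines the medians of -0.04, 0.07, 0.23 and 0.05. The point far above the others is Msrb2 at 2.80, and all 6 squares lie below 0.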

How the data were processed

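Total RNA of 6 cultures was labelled with Cy3 and read on 1 array each. Per the file headers, the deposited processed signal is an intensity, linear and not log-transformed, from which Agilent Feature Extraction (9.5.3.1, per the submitters' processing notes) had subtracted background and removed trends across the array; arrays were not scaled to each other. The authors' value table was identical to it. Positions are on mm7, per the file headers.

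Controls (1639 of 45018 spots) and 111 to 121 outlier spots per array were left out and spots of a probe averaged. Genes were named through RefSeq (GRCm38.p6): 22951 probes by accession, 6659 by symbol, 3109 by a former symbol, while for 8455 the name of the array design was kept. Levels are log2 of the signal minus each array's 75th percentile (1148 to 1458). Probes well above background on at least 3 arrays were kept (23518), the brightest standing for its gene. The test was limma 3.58.1 (R 4.3.3, lmFit and eBayes, no block) over all 15414 genes with Benjamini-Hochberg adjustment at 0.05. It was tested on simulated data. P-values measure the spread between cultures of 1 pool of clones per group, and the number of arrays limits precision.

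Slide 1, read in scan 1, held all 3 IRF7 arrays beside base-vector replicate 1, and slide 2 held the remaining base-vector arrays, so a value within slide 1 compares 3 arrays with 1. The members and the 4 lists were chosen with earlier results of these data known. Named list genes are up to 3 that rose and 3 that fell with the smallest p and no overlap, and up to 2 brightest that did not pass; genes too dim to test, chromosome 7 genes and Ghr are named besides. The result of 1 marker list is not reported here.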

Additional observations from a re-analysis of the deposited data

How the results depend on the processing

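The alternatives were other background corrections, scalings, filters, probe rules and variance models, slide or replicate number as a block, slide 1 alone and each array left out. Centring on the median called 6207 genes, and no filter 14466, against 9403. With median centring 4 members passed (2 lower), 4 other selenoproteins (1 higher), 3 selenium pathway genes (2 higher, 1 lower), 11 thioredoxin and glutathione genes (7 higher) and 7 NRF2 pathway genes higher. Without scaling 2 members, 2 other selenoproteins, 1 selenium pathway, 1 thioredoxin and glutathione and 3 NRF2 pathway genes were lower, and 7 selenium pathway genes higher; the median of all genes then moved by about 0.2, so 79.1% of called genes were higher, against 52.3%. No scaling turned Gpx4 to 0.01 (0.00519), Sep15 to 0.0623 and Dio2 to 0.0865. The median level of a gene's probes on each array turned Selenot to -0.0344 and left 1 other selenoprotein higher, beside 4637 of all genes. With slide as a fixed block 7135 of all genes passed, and 3 other selenoproteins did, 1 higher and 2 lower. The cause was not tested.

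Leaving out each array gave 8270 to 9079 genes called, 6 to 7 members (2 to 3 higher, 4 lower), 4 to 8 other selenoproteins (2 to 3 higher, 2 to 5 lower), 7 to 8 selenium pathway genes (4 higher, 3 to 4 lower), 19 to 20 thioredoxin and glutathione genes (13 to 14 higher, 6 lower) and 17 to 19 NRF2 pathway genes (9 to 10 higher, 8 to 10 lower). Same-numbered arrays deviated together at correlations of 0.0545, 0.182 and 0.23, and each correlated best with its own number. The labels do not say that same-numbered arrays are pairs, and the main fit did not pair them. With the replicate number as a block 9741 genes, 7 members, 7 other selenoproteins, 8 selenium pathway, 20 thioredoxin and glutathione and 20 NRF2 pathway genes passed. Sepp1's fold is limited by its base-vector signal, which is not above background.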
